A study of Mus musculus with 48 samples.

Results

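Cartilage matrix and chondrocyte genes were examined across mouse skin and the cartilage/muscle complex of the ear. A list of 38 symbols was matched by name to the gene tables of the study, each of which holds 46983 genes, and 37 were found in both. The remaining symbol, Snorc, is listed in the tables as 3110079O15Rik and was recognised by its Ensembl identifier, ENSMUSG00000026258. It is described separately and is not counted among the 37.

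The study asked how hair follicles in different regions of mouse skin pass through the hair cycle, and why follicles of the ear stay at rest. RNA was sequenced from C57BL/6 mice in 48 distinct libraries. The ear table has 7 libraries: 3 of the ear cartilage/muscle complex, 2 of telogen ear skin and 2 of dorsal skin in competent telogen. The ear skin samples are labelled rostral, and ear skin below means this rostral skin. The skin table has 43 libraries of whole chin, ventral and dorsal skin. Each of these 3 domains was sampled at 6 stages: telogen labelled competent or refractory, anagen labelled early, mid or late, and catagen, with 2 or 3 libraries in each of the 18 groups. Anagen is the growth phase of the hair cycle, catagen the phase of regression and telogen the phase of rest, in which follicles are either open to growth signals (competent) or closed to them (refractory). The labels name no mutant, no treatment, no age and no sex. The 2 dorsal competent telogen libraries stand in both tables with identical values.

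Cartilage is a stiff gel held in a fibre mesh. Its fibrils are built of type II collagen with types IX and XI on and within them, and its gel is aggrecan, a proteoglycan that binds hyaluronan and draws in water through its sulfated sugar chains. Chondrocytes, the cells that make this matrix, also secrete bridging proteins and small leucine-rich proteoglycans that tie fibrils to the gel, and their fate is set by SOX-family factors and by signals through the parathyroid hormone and FGF receptors. The mouse auricle is held up by a plate of elastic cartilage with muscle attached to it, whereas hairy body skin contains no cartilage. Several members are also made by fibroblasts, tendon cells or follicle cells.

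Values are FPKM, fragments per kilobase of transcript scaled to the mapped fragments of the library, so levels of different genes can be set side by side. Differences are on the log2(FPKM + 1) scale with their standard errors (SE). A gene was tested where it reached 0.5 FPKM in at least 2 libraries, and it was called where the adjusted p was under 0.05. In bulk tissue, fewer cells of a type and less RNA per cell cannot be told apart. The labels do not say whether replicates came from separate animals, so p-values measure the spread between these libraries.

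Estimated depth ran from 6836626 to 29262135 fragments per library. The complex libraries had 12210477, 7087228 and 10551778 fragments. The 6 defining chondrocyte genes (Col2a1, Acan, Matn1, Col9a1, Col11a2 and Hapln1, all of them members) summed to between 365.5 and 412.4 FPKM in the complex and to at most 2.06 FPKM in any skin library of the skin table, where 11 members were not tested for low values. Of the 8 keratinocyte markers, none reached 5 FPKM in a complex library: they summed to between 3.69 and 4.39 FPKM there against 13423 to 14421 FPKM in ear skin. Skeletal muscle genes summed to between 24381 and 27895 FPKM in the complex. Several skin libraries went against their stage labels. The proliferation gene Mki67 was at 1.39 to 1.42 FPKM in the libraries labelled ventral early anagen, below the 1.61 to 2.16 FPKM of the refractory telogen libraries of the 3 domains, and at 13.3 to 13.5 and 11.1 to 12.5 FPKM in those labelled chin and ventral competent telogen. The dorsal competent telogen libraries, to which the ear samples are compared, had Mki67 at 6.12 to 6.27 FPKM. Their Krt35, a hair keratin of growing follicles, was at 889 to 902 FPKM, against 886 to 1065 FPKM in dorsal mid and late anagen and 355 to 371 FPKM in dorsal refractory telogen. Comparisons across stages are therefore given by label, with and without competent telogen and early anagen, and ear skin was also compared with dorsal refractory telogen. Catagen stayed in both versions of the domain comparisons, although its libraries differed between domains. Krt35 was at 366 to 381 FPKM in dorsal, 1145 to 1184 FPKM in chin and 860 to 1086 FPKM in ventral catagen. Mki67 was at 22.8 to 23.0 FPKM in dorsal, 7.43 to 7.87 FPKM in chin and 10.2 FPKM in ventral catagen.

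Promoters were read to see what sequence the members share. The RefSeq table of GRCm38.p6 held 42 promoters, from 250 bases before to 50 bases after a gene start, for 29 of the 37 members. The search was for ACAATG and ACAAAG on either strand, the core of the DNA word that SOX proteins bind. Such a word was found in 10 of the 42 member promoters (23.8%), those of Sox5, Sox6, Pth1r, Col10a1 and Epyc, and in 28.6% of the 32851 promoters of the table. The 250 bases before the start are printed for 4 members on which the results turn, with the word in capitals where it occurs: Cytl1, the most abundant; Acan, the main proteoglycan; Col10a1, a collagen of mature chondrocytes; and Sox5, a factor for which both the complex and the skin table gave differences.

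Cytl1, chr5:37735269-37735518, plus strand: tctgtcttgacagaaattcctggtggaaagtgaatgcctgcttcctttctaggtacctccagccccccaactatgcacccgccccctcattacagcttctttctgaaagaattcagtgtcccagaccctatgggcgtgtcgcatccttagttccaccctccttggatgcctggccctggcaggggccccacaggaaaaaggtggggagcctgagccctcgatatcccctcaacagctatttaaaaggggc

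Acan, chr7:79052976-79053225, plus strand: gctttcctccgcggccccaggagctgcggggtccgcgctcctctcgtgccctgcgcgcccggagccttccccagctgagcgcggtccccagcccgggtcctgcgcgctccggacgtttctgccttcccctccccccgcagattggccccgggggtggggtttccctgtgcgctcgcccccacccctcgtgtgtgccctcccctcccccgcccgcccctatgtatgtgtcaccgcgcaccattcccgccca

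Col10a1, chr10:34389731-34389980, plus strand: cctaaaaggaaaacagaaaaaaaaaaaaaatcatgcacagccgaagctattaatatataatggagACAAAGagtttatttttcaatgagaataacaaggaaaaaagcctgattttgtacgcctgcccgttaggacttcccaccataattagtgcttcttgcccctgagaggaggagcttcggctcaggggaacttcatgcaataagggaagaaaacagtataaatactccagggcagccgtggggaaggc

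Sox5, chr6:143947107-143947356, minus strand: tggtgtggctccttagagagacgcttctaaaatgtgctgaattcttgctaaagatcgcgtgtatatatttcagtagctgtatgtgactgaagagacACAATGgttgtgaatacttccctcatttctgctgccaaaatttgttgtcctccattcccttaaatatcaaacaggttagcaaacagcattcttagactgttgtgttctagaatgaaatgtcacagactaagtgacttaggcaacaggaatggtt

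In Sox5 the word ACAATG began 154 bases before the listed start, and in Col10a1 the word ACAAAG began 185 bases before its start. The Sox5 start lies inside the gene, which spans 143828425 to 144781977 on the minus strand. This window therefore belongs to an internal start and says nothing of the promoter at the outer end of Sox5. No match was found in the Cytl1 and Acan windows, which says only that these letters are absent there. The Acan window was rich in CG dinucleotides, with 26 of them and 74.4% G+C. The windows of Cytl1, Col10a1 and Sox5 held 4, 5 and 3 CG dinucleotides, against a median of 6 over all promoters.

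In the ear cartilage/muscle complex most cartilage genes were higher than in skin, by sizes that differed widely. Over ear skin, the ratio of mean FPKM ran from 1.58 for Pth1r to 2782 for Cytl1 among the 29 members called higher and not listed at 0 in ear skin. It was at least 10 for 22 of them and under 5 for 6 (Pth1r, Matn4, Trps1, Papss2, Fgfr3 and Sox6). Against ear skin, 30 of the 35 members tested were higher and 3 lower, where 28.0% of all 19299 genes tested were higher and 38.5% lower. Against dorsal skin, 32 were higher and 2 lower, with a background of 42.8% and 28.3%. The median difference of the members was 4.73 against ear skin and 4.67 against dorsal skin, and the medians over all genes tested were -0.11 and 0.24. Both comparisons use the same 3 complex libraries. Of the 35, 11 reached the filter only with the complex libraries (Col2a1, Col9a1, Col9a2, Col10a1, Col11a2, Acan, Hapln1, Matn1, Matn3, Ucma and Epyc), as did 10.1% of all genes tested. These had to be high in the complex to be tested at all, so the counts and medians that include them are no support for a difference. Of the other 24, 20 were higher and 3 lower than in ear skin, and 21 were higher and 2 lower than in dorsal skin. The 37 members together made up 5.04 to 5.34% of the summed FPKM of the complex, 0.0259 to 0.0280% of that of ear skin and 0.0098 to 0.0101% of that of dorsal skin.

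**Figure D1:**
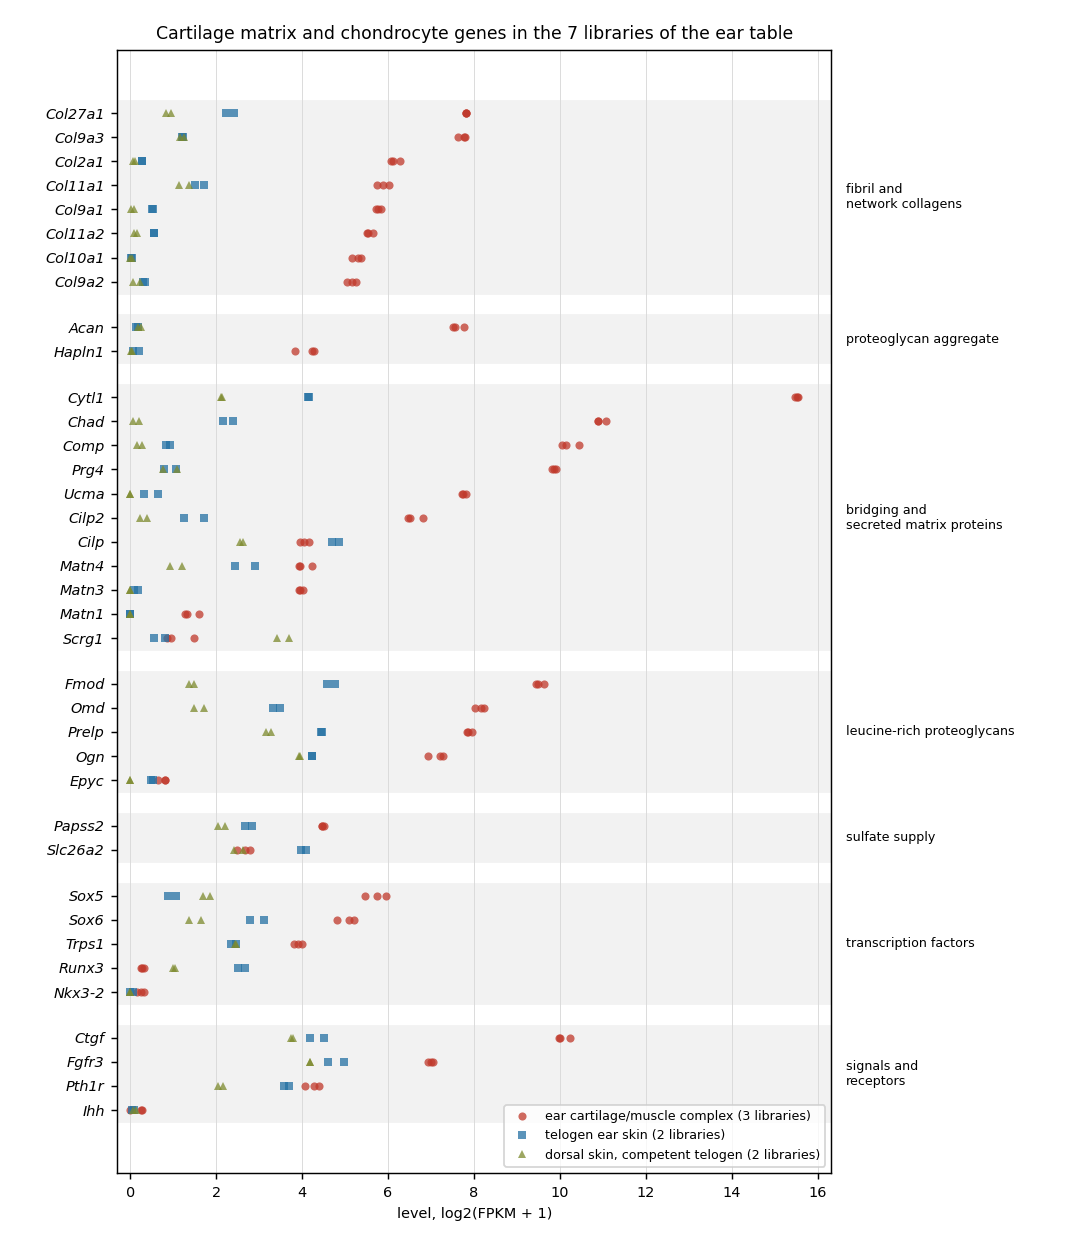
Level of each of the 37 members in each of the 7 libraries of the ear table, on a log2(FPKM + 1) axis and grouped by role. Points are libraries: 3 of the complex, 2 of telogen ear skin and 2 of dorsal skin in competent telogen. The complex points stand to the right of both skins for most genes, with Cytl1 farthest out, and to the left of ear skin for Cilp, Slc26a2 and Runx3.

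The fibril and network collagens were all higher in the complex than in either skin (8 of 8 in both comparisons), 5 of them tested only through their level in the complex. Col27a1, a fibrillar collagen of developing cartilage, stood at 225, 225 and 223 FPKM in complex replicates 1, 2 and 3, at 4.33 and 3.71 FPKM in the ear skin libraries and at 0.94 and 0.79 FPKM in dorsal replicates 1 and 2. The complex libraries lay far above both skins, by 5.49 (SE 0.075, adjusted p = 4.32e-08) over ear skin and 6.92 (SE 0.075, adjusted p = 1.06e-08) over dorsal skin. Col9a3, a chain of the type IX collagen that decorates type II fibrils, stood at 217, 221 and 196 FPKM in the complex, 1.36 and 1.30 FPKM in ear skin and 1.22 and 1.38 FPKM in dorsal skin. The skins overlapped for Col9a3, and the complex exceeded them by 6.51 (SE 0.077, adjusted p = 2.42e-08) and 6.53 (SE 0.077, adjusted p = 1.44e-08).

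Col2a1, the type II collagen that forms the bulk of cartilage fibrils, was at 68.5, 77.1 and 66.3 FPKM in the complex. It was at 0.22 and 0.21 FPKM in ear skin and 0.08 and 0.05 FPKM in dorsal skin, so that the difference was 5.88 (SE 0.087, adjusted p = 5.64e-08) from ear skin and 6.07 (SE 0.087, adjusted p = 3.40e-08) from dorsal skin. Within the complex, its mean of 70.6 FPKM was below those of Col27a1 and Col9a3. The partners of type II collagen fell in the same range: Col11a1 from 52.1 to 63.9 FPKM, Col9a1 from 51.5 to 56.0 FPKM, Col11a2 from 44.4 to 49.1 FPKM and Col9a2 from 32.2 to 37.3 FPKM. Col10a1, the network collagen of mature (hypertrophic) chondrocytes, was at 40.6, 34.6 and 38.3 FPKM in the complex. No skin library of the ear table had more than 0.03 FPKM of Col10a1, and the complex was higher by 5.24 (SE 0.092, adjusted p = 1.08e-07) than ear skin and by 5.25 (SE 0.092, adjusted p = 7.84e-08) than dorsal skin.

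Both members of the proteoglycan aggregate were higher in the complex, and both were tested only through their level there. Acan, which encodes aggrecan, was at 186, 215 and 181 FPKM in the complex, 0.13 and 0.10 FPKM in ear skin and 0.20 and 0.14 FPKM in dorsal skin. The ear skin mean was 0.0593% of the complex mean, and the difference was 7.45 (SE 0.093, adjusted p = 2.86e-08) from ear skin and 7.38 (SE 0.093, adjusted p = 1.93e-08) from dorsal skin. Hapln1, the link protein that locks aggrecan to hyaluronan, was at 17.8, 13.2 and 18.2 FPKM in the complex and at most 0.15 FPKM in either skin. It was higher by 3.97 (SE 0.15, adjusted p = 2.60e-06) than ear skin and by 4.08 (SE 0.15, adjusted p = 2.20e-06) than dorsal skin.

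The bridging and secreted proteins held the most abundant members. Cytl1 (ENSMUSG00000062329, on chromosome 5, 37735519 to 37739820 in GRCm38, plus strand), a small secreted protein first known from blood progenitors and made by chondrocytes, reached 47488, 45030 and 46479 FPKM in the complex, 16.8 and 16.5 FPKM in ear skin and 3.31 and 3.42 FPKM in dorsal skin. It alone made up 4.46, 4.47 and 4.32% of the summed FPKM of the complex libraries and ranked 3rd, 2nd and 3rd of all genes in them. The complex exceeded ear skin by 11.36 (SE 0.048, adjusted p = 2.41e-09) and dorsal skin by 13.37 (SE 0.048, adjusted p = 4.88e-10). Of the 37 members, 14 were among the 1000 genes with the highest mean in the complex, and none was among the top 1000 of ear skin or of dorsal skin.

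Chad, chondroadherin, a leucine-rich protein that chondrocytes adhere to, was at 1876, 2145 and 1877 FPKM in the complex, 3.47 and 4.26 FPKM in ear skin and 0.04 and 0.16 FPKM in dorsal skin. Comp, a pentamer that cross-links collagen in cartilage and tendon, was at 1117, 1392 and 1056 FPKM in the complex, 0.91 and 0.79 FPKM in ear skin and 0.12 and 0.22 FPKM in dorsal skin. Prg4, the lubricant lubricin of cartilage surfaces, was at 963, 927 and 904 FPKM in the complex, 1.11 and 0.73 FPKM in ear skin and 0.69 and 1.12 FPKM in dorsal skin. Library groups did not overlap between the complex and either skin for these 3 genes, whereas the skins overlapped for Prg4. Against ear skin the differences were 8.66 (SE 0.10, adjusted p = 2.58e-08) for Chad, 9.32 (SE 0.13, adjusted p = 4.27e-08) for Comp and 8.93 (SE 0.13, adjusted p = 4.67e-08) for Prg4. Against dorsal skin they were 10.80 (SE 0.10, adjusted p = 6.43e-09), 9.98 (SE 0.13, adjusted p = 2.04e-08) and 8.94 (SE 0.13, adjusted p = 3.15e-08).

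Ucma, a calcium-binding protein of cartilage, was at 209, 225 and 215 FPKM in the complex, 0.26 and 0.57 FPKM in ear skin and listed at 0 in both dorsal libraries. The complex exceeded ear skin by 7.27 (SE 0.10, adjusted p = 4.99e-08), with Ucma tested only through its level in the complex. Cilp2, a glycoprotein of the middle zone of articular cartilage, was at 89.6, 111 and 86.8 FPKM in the complex, 2.27 and 1.38 FPKM in ear skin and 0.32 and 0.18 FPKM in dorsal skin. It was higher in the complex by 5.11 (SE 0.17, adjusted p = 1.49e-06) than in ear skin and by 6.27 (SE 0.17, adjusted p = 5.91e-07) than in dorsal skin.

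The matrilins, adaptor proteins between collagen and proteoglycan, ranked differently from each other. Matn4 was at 14.1, 17.8 and 14.4 FPKM in the complex, 6.53 and 4.41 FPKM in ear skin and 0.91 and 1.29 FPKM in dorsal skin. Matn3 was at 14.3, 14.5 and 15.1 FPKM in the complex, 0.13 and 0.06 FPKM in ear skin and listed at 0 in dorsal skin. Matn1, a matrilin used as a marker of hyaline cartilage, was at only 1.5, 2.01 and 1.42 FPKM in the complex and listed at 0 in all 4 skin libraries of the ear table. All 3 were called higher in the complex, by 1.36 (SE 0.18, adjusted p = 0.000779) for Matn4 and 3.84 (SE 0.080, adjusted p = 2.06e-07) for Matn3 against ear skin, and Matn1 with an adjusted p of 0.000104. Matn3 and Matn1 were tested only through their level in the complex.

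Some members did not follow this order. Cilp, a cartilage intermediate layer protein that fibroblasts also secrete, was at 15.5, 17.0 and 14.6 FPKM in the complex, 28.0 and 24.7 FPKM in ear skin and 5.18 and 4.83 FPKM in dorsal skin. The complex thus stood between the skins, lower than ear skin by 0.71 (SE 0.092, adjusted p = 0.000672) and higher than dorsal skin by 1.47 (SE 0.092, adjusted p = 2.06e-05). Scrg1, a secreted protein found in chondrogenic cells and in brain, was at 0.81, 1.82 and 0.93 FPKM in the complex, 0.76 and 0.48 FPKM in ear skin and 9.75 and 12.0 FPKM in dorsal skin. Dorsal skin was the high tissue for Scrg1: the complex minus dorsal difference was -2.46 (SE 0.22, adjusted p = 0.000104), and that from ear skin was 0.41 (SE 0.22, adjusted p = 0.144).

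The small leucine-rich proteoglycans, which coat collagen fibrils and set their width, were higher in the complex than in dorsal skin in 5 of 5 cases and than in ear skin in 4 of 5. Fmod (fibromodulin) was at 718, 789 and 695 FPKM in the complex, 26.3 and 23.1 FPKM in ear skin and 1.60 and 1.82 FPKM in dorsal skin. Omd (osteomodulin) was at 284, 259 and 300 FPKM in the complex, 8.97 and 10.3 FPKM in ear skin and 2.29 and 1.79 FPKM in dorsal skin. Prelp, which anchors basement membranes and cartilage fibrils, was at 230, 248 and 226 FPKM in the complex, 21.2 and 20.7 FPKM in ear skin and 8.62 and 7.91 FPKM in dorsal skin. For these 3 genes the tissues were ordered complex, ear skin, dorsal skin with no overlap of libraries, and the complex exceeded ear skin by 4.84 (SE 0.087, adjusted p = 1.20e-07) for Fmod, 4.73 (SE 0.11, adjusted p = 2.80e-07) for Omd and 3.42 (SE 0.066, adjusted p = 1.56e-07) for Prelp. Ogn (osteoglycin) was at 146, 121 and 154 FPKM in the complex, 17.8 and 17.8 FPKM in ear skin and 14.1 and 14.5 FPKM in dorsal skin. Epyc (epiphycan), a proteoglycan of growth plate cartilage, was low in all tissues, at 0.75, 0.57 and 0.75 FPKM in the complex, 0.40 and 0.44 FPKM in ear skin and listed at 0 in dorsal skin. The complex minus ear skin difference of Epyc, 0.25 (SE 0.095), did not pass (adjusted p = 0.0573). Epyc was tested only through its level in the complex.

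Some members lie close together in the genome. Prelp and Fmod lie 115839 bases apart on chromosome 1 (133910304 to 133921414 and 134037254 to 134048277), and Omd and Ogn lie 15223 bases apart on chromosome 13 (49582462 to 49592822 and 49608046 to 49624501, GRCm38). Cilp2 and Comp lie 485870 bases apart on chromosome 8. Of the closest pair, Omd exceeded dorsal skin by 6.54 (SE 0.11, adjusted p = 5.63e-08) and Ogn by 3.20 (SE 0.11, adjusted p = 1.31e-06).

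The genes of sulfate supply went separate ways. Papss2, which makes the activated sulfate used to build aggrecan chains, was at 21.0, 21.7 and 21.0 FPKM in the complex, 6.14 and 5.34 FPKM in ear skin and 3.14 and 3.62 FPKM in dorsal skin. It was higher in the complex by 1.73 (SE 0.085, adjusted p = 8.41e-06) than in ear skin and by 2.35 (SE 0.085, adjusted p = 2.02e-06) than in dorsal skin. Slc26a2, the sulfate transporter whose loss causes chondrodysplasia, was at 4.64, 5.33 and 5.85 FPKM in the complex, 14.6 and 15.9 FPKM in ear skin and 5.21 and 4.30 FPKM in dorsal skin. Ear skin was the high tissue for Slc26a2, above the complex by a difference of -1.38 for complex minus ear skin (SE 0.12, adjusted p = 9.63e-05), and the complex overlapped dorsal skin (0.12, SE 0.12, adjusted p = 0.374).

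Of the transcription factors, Sox5 and Sox6, which act together to switch on aggrecan and type II collagen, were higher in the complex. Sox5 was at 52.7, 60.4 and 43.05 FPKM in the complex, 1.10 and 0.85 FPKM in ear skin and 2.62 and 2.24 FPKM in dorsal skin. Sox6, which also acts in muscle fibres and red cells, was at 36.0, 32.95 and 27.3 FPKM in the complex, 7.67 and 5.95 FPKM in ear skin and 1.57 and 2.15 FPKM in dorsal skin. The skins were thus in opposite order for these partners, while the complex exceeded both, against ear skin by 4.74 (SE 0.15, adjusted p = 1.27e-06) for Sox5 and 2.08 (SE 0.16, adjusted p = 6.80e-05) for Sox6. Trps1, a GATA-type repressor of cartilage and hair follicle, was at 13.9, 13.03 and 15 FPKM in the complex, 4.11 and 4.51 FPKM in ear skin and 4.51 and 4.41 FPKM in dorsal skin. Runx3, a factor of chondrocyte maturation and of lymphocytes, was at 0.22, 0.24 and 0.19 FPKM in the complex, 4.69 and 5.42 FPKM in ear skin and 1.06 and 1.01 FPKM in dorsal skin. The complex was the low tissue for Runx3, at -2.31 from ear skin (SE 0.092, adjusted p = 3.15e-06) and -0.74 from dorsal skin (SE 0.092, adjusted p = 0.000503). Nkx3-2, a repressor of chondrocyte maturation, stayed at or below 0.25 FPKM in every library and was not tested.

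Among signals and receptors, Ctgf (also called Ccn2), a secreted matricellular protein of chondrocytes and fibroblasts, was at 1017, 1209 and 1013 FPKM in the complex, 21.8 and 17.0 FPKM in ear skin and 12.4 and 12.8 FPKM in dorsal skin. It exceeded ear skin by 5.73 (SE 0.12, adjusted p = 2.44e-07) and dorsal skin by 6.31 (SE 0.12, adjusted p = 1.39e-07). The study itself drew attention to Ctgf in these samples, so its place in the list is not independent evidence. Fgfr3, the FGF receptor that restrains growth plate chondrocytes, was at 131, 126 and 121 FPKM in the complex, 30.3 and 23.4 FPKM in ear skin and 17.1 and 17.2 FPKM in dorsal skin. Pth1r, the receptor of parathyroid hormone-related protein, was at 18.4, 20.0 and 15.8 FPKM in the complex, 11.9 and 11.02 FPKM in ear skin and 3.15 and 3.46 FPKM in dorsal skin. The complex was higher than ear skin by 2.20 (SE 0.11, adjusted p = 8.19e-06) for Fgfr3 and 0.61 (SE 0.11, adjusted p = 0.00317) for Pth1r. Ihh, the hedgehog ligand of prehypertrophic chondrocytes, did not exceed 0.22 FPKM in a library of the ear table or 0.26 FPKM in one of the skin table, and was not tested.

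Snorc, a transmembrane proteoglycan of chondrocytes, was at 1115, 1264 and 1108 FPKM in the complex, 2.52 and 1.67 FPKM in ear skin and 0.66 and 0.82 FPKM in dorsal skin.

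The complex libraries were close to each other for the members. Of the 33 members with a complex mean of at least 1 FPKM, 28 had a coefficient of variation under 15%, and the median was 7.89%, against 10.8% over the 14782 genes at that level. Scrg1 was the most variable of them, at 46.5%. Replicate 2, the shallowest complex library, was the highest for 20 of the 33 (60.6%), and it was also the highest for 49.3% of all 14782 genes.

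**Figure D2:**
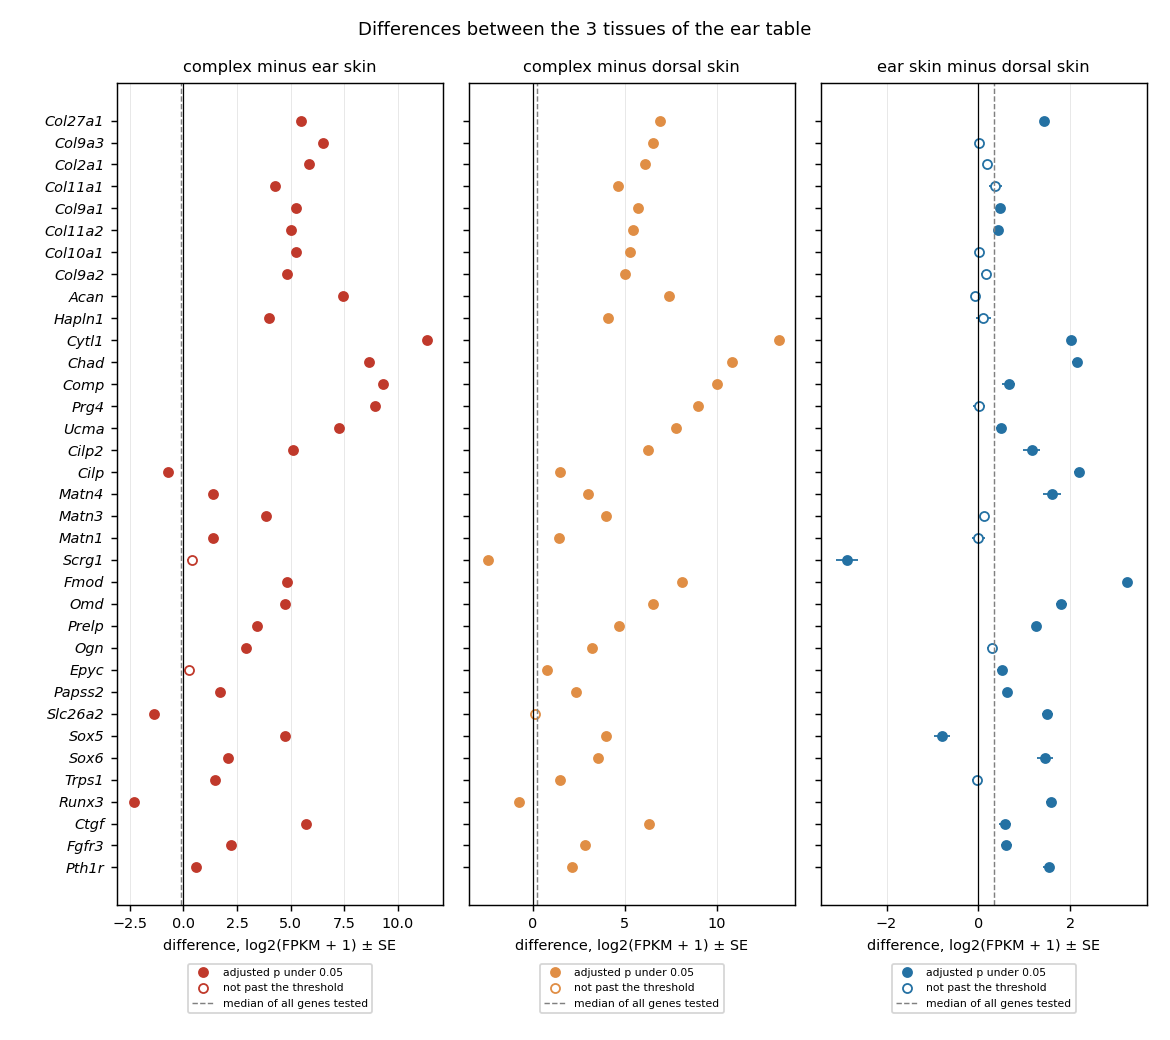
Difference of each of the 35 tested members, in log2(FPKM + 1) with its SE, for complex minus ear skin, complex minus dorsal skin and ear skin minus dorsal skin. Filled points passed an adjusted p of 0.05, open points did not, and the dashed line is the median of all genes tested. The complex differences reach 13.37 for Cytl1, and those between the skins run from -2.87 for Scrg1 to 3.24 for Fmod.

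Between the skins, ear skin was higher than dorsal skin for 21 of the 35 members tested and lower for 2, where 44.7% of all genes tested were higher and 14.6% lower. The 35 include the 11 members that reached the filter only with the complex libraries. The median over all genes was itself 0.33 in favour of ear skin and that of the members 0.51. With sizes set by the median of ratios, under which the median of all genes was 0.02, the members split 18 higher and 4 lower (background 26.6% and 27.8%), and with quantile normalization 16 and 5 (background 28.0% and 23.5%). Ear skin shares its libraries with the comparisons above.

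The leucine-rich proteoglycan Fmod had the largest of these differences, 3.24 (SE 0.096, adjusted p = 2.24e-06), or 2.91 above the median of all genes. Cilp was higher by 2.19 (SE 0.10, adjusted p = 1.36e-05), Chad by 2.14 (SE 0.11, adjusted p = 2.51e-05) and Cytl1 by 2.02 (SE 0.052, adjusted p = 1.23e-06). These genes encode secreted proteins, and which cells expressed them in ear skin was not tested. Omd (1.81, SE 0.12, adjusted p = 5.36e-05), Matn4 (1.61, SE 0.20, adjusted p = 0.000753), Runx3 (1.57, SE 0.10, adjusted p = 5.27e-05), Pth1r (1.53, SE 0.12, adjusted p = 0.000116), Slc26a2 (1.5, SE 0.13, adjusted p = 0.000162), Sox6 (1.45, SE 0.18, adjusted p = 0.000784), Col27a1 (1.43, SE 0.083, adjusted p = 3.45e-05), Prelp (1.25, SE 0.072, adjusted p = 3.47e-05) and Cilp2 (1.16, SE 0.19, adjusted p = 0.00244) were also higher by more than 1.

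Smaller differences were called for Comp (0.66, SE 0.14, adjusted p = 0.00726), Papss2 (0.62, SE 0.093, adjusted p = 0.00178), Fgfr3 (0.61, SE 0.12, adjusted p = 0.00539), Ctgf (0.58, SE 0.14, adjusted p = 0.0116), Epyc (0.51, SE 0.10, adjusted p = 0.0066), Ucma (0.49, SE 0.11, adjusted p = 0.0109), Col9a1 (0.47, SE 0.080, adjusted p = 0.00304) and Col11a2 (0.44, SE 0.085, adjusted p = 0.00543). Relative to the median of all genes, these differences came to at most 0.33, in Comp. Of these smaller calls, 5 were lost with another scaling. With the median of ratios, Papss2 came to 0.22 (adjusted p = 0.074), Fgfr3 to 0.13 (adjusted p = 0.34) and Ctgf to 0.12 (adjusted p = 0.463). With quantile normalization, Papss2 came to 0.22 (adjusted p = 0.0693), Fgfr3 to 0.28 (adjusted p = 0.0767), Ctgf to 0.21 (adjusted p = 0.18), Ucma to 0.31 (adjusted p = 0.0709) and Col11a2 to 0.20 (adjusted p = 0.0805). Of the 6 defining chondrocyte genes, Col9a1 and Col11a2 were thus called higher in ear skin, while Col2a1 (0.19, adjusted p = 0.135), Acan (-0.07, adjusted p = 0.595) and Hapln1 (0.11, adjusted p = 0.613) did not pass and Matn1 was listed at 0 in both skins. Col9a1 was at 0.43 and 0.45 FPKM in ear skin and 0.02 and 0.06 FPKM in dorsal skin. Col11a2 was at 0.48 FPKM in both ear skin libraries and 0.07 and 0.12 FPKM in dorsal skin. Like Epyc and Ucma, both genes reached the filter only with the complex libraries. The other members that did not pass were Col9a2, Col9a3, Col10a1, Col11a1, Matn3, Prg4, Ogn and Trps1, with differences from -0.04 in Trps1 to 0.37 in Col11a1. Scrg1 (-2.87, SE 0.24, adjusted p = 0.000148) and Sox5 (-0.80, SE 0.17, adjusted p = 0.00726) were lower in ear skin.

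Beside these values, all 7 dermal fibroblast markers were higher in ear skin, where 44.7% of all genes tested were higher and 14.6% lower. They summed to between 10384 and 10715 FPKM there against 1247 FPKM in each dorsal library. All 14 skeletal muscle genes were lower in ear skin, summing to 1506 to 1547 FPKM against 6850 to 6930 FPKM. Of 8 keratinocyte genes, 6 were higher and 2 lower, and of 6 adipocyte genes, 2 were higher and 3 lower. The part of these cells in the differences was not tested. With the dorsal refractory telogen libraries in place of the competent telogen ones, 19 members were higher and 4 lower in ear skin (background 44.5% and 13.0%). The differences of Col11a2 (0.13), Cilp2 (0.40), Sox5 (-0.08) and Ctgf (-0.0038) were then no longer called, with adjusted p-values of 0.374, 0.107, 0.709 and 0.99, and Fgfr3 also lost its call. Other members were newly called, as the number called stayed at 23. Ogn was at 3.59 and 4.79 FPKM in dorsal refractory telogen, below both ear skin libraries at 17.8 FPKM. Col9a3 lay the other way, at 4.35 and 4.21 FPKM there against 1.36 and 1.30 FPKM in ear skin. Ctgf lost its call without dorsal competent telogen replicate 1 (0.56, adjusted p = 0.0588) and without 1 ear skin library (0.41, adjusted p = 0.0529). Ucma lost its call without dorsal competent telogen replicate 2 (0.49, adjusted p = 0.0501).

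The pathway genes that surround these members moved less uniformly in the complex. Of all genes tested, 28.0% were higher and 38.5% lower than in ear skin, and 42.8% were higher and 28.3% lower than in dorsal skin. Of 17 tested genes that build chondroitin sulfate and hyaluronan, 8 were higher and 5 lower than in ear skin, and 11 were higher than in dorsal skin with 6 not called, with medians of 0.08 and 0.91. Chst12, a chondroitin sulfotransferase, was at 66.1, 71.1 and 62.7 FPKM in the complex and 29.0 and 25.1 FPKM in ear skin (difference 1.27, SE 0.092, adjusted p = 4.69e-05). Ugdh, which makes the glucuronate donor of both chains, was at 42.9, 50.1 and 46.1 FPKM and 27.4 and 29.8 FPKM (0.68, SE 0.080, adjusted p = 0.000458).

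Of 13 tested genes of matrix turnover, 6 were higher and 6 lower than in ear skin (median -0.12), and 7 were higher and 3 lower than in dorsal skin (median 0.82). The counts against dorsal skin are near the shares over all genes, 42.8% higher and 28.3% lower. Against ear skin those shares were 28.0% and 38.5%. The 2 turnover genes with the highest complex mean were inhibitors of metalloproteinases. Timp3 was at 1108, 1048 and 1113 FPKM in the complex against 52.3 and 52.3 FPKM in ear skin (4.35, SE 0.048, adjusted p = 2.00e-08), and Timp2 at 335, 359 and 328 FPKM against 88.9 and 95.0 FPKM (1.88, SE 0.060, adjusted p = 1.23e-06). The metalloproteinase Mmp3 was below ear skin, at 4.05, 4.82 and 3.61 FPKM against 78.0 and 77.6 FPKM. Mmp14 was too, at 36.3, 39.1 and 33.8 FPKM against 78.1 and 74.0 FPKM. Of 8 tested genes of bone and hypertrophic cartilage, 5 were higher and 2 lower than in ear skin (median 0.74), and 5 were higher than in dorsal skin with 3 not called (median 0.55). Mef2c, a factor of chondrocyte hypertrophy and of muscle, was at 234, 222 and 264 FPKM against 14.6 and 15.2 FPKM in ear skin (3.92, SE 0.082, adjusted p = 2.09e-07), and Spp1 (osteopontin) at 60.4, 68.1 and 60.5 FPKM against 8.12 and 7.0 FPKM (2.90, SE 0.089, adjusted p = 1.01e-06). Of 11 elastic fibre genes, 6 were higher and 3 lower than in ear skin (median 0.62), and 9 were higher than in dorsal skin with 2 not called (median 1.78). Eln, elastin, was at 536, 543 and 524 FPKM in the complex against 24.1 and 25.5 FPKM in ear skin (4.37, SE 0.052, adjusted p = 2.43e-08), and Ltbp4, which guides its assembly, at 198, 221 and 191 FPKM against 48.3 and 44.7 FPKM (2.10, SE 0.087, adjusted p = 3.72e-06).

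The complex samples hold muscle by their label, and marker genes of muscle, tendon, fat, fibroblasts and keratinocytes were read in them. The shares over all genes were 28.0% higher and 38.5% lower against ear skin, and 42.8% and 28.3% against dorsal skin. All 14 skeletal muscle genes were higher than in ear skin (Acta1, 4.13, SE 0.092, adjusted p = 2.64e-07; Tnnc2, 3.84, SE 0.078, adjusted p = 1.85e-07), and 12 were higher and 2 lower than in dorsal skin. Of 5 tendon genes, 3 were higher and 2 lower than in ear skin (Thbs4, 4.81, SE 0.086, adjusted p = 1.16e-07; Mkx, 3.43, SE 0.20, adjusted p = 1.67e-05), and all 5 were higher than in dorsal skin. Of 6 adipocyte genes, 5 were higher than in ear skin (Fabp4, 1.65, SE 0.062, adjusted p = 2.43e-06; Adipoq, 0.70, SE 0.061, adjusted p = 0.000105), and 2 were higher and 3 lower than in dorsal skin. Of 7 fibroblast genes, 2 were higher and 5 lower than in ear skin (Dcn, 0.99, SE 0.046, adjusted p = 6.13e-06; Col1a2, -3.21, SE 0.063, adjusted p = 1.62e-07), and 5 were higher and 2 lower than in dorsal skin. All 8 keratinocyte genes were lower than in either skin (Krt10, -9.30, SE 0.13, adjusted p = 4.81e-08 and Krt15, -10.98, SE 0.24, adjusted p = 2.61e-07 against ear skin). The part of muscle, tendon or fat cells in the level of any member was not tested.

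**Figure D3:**
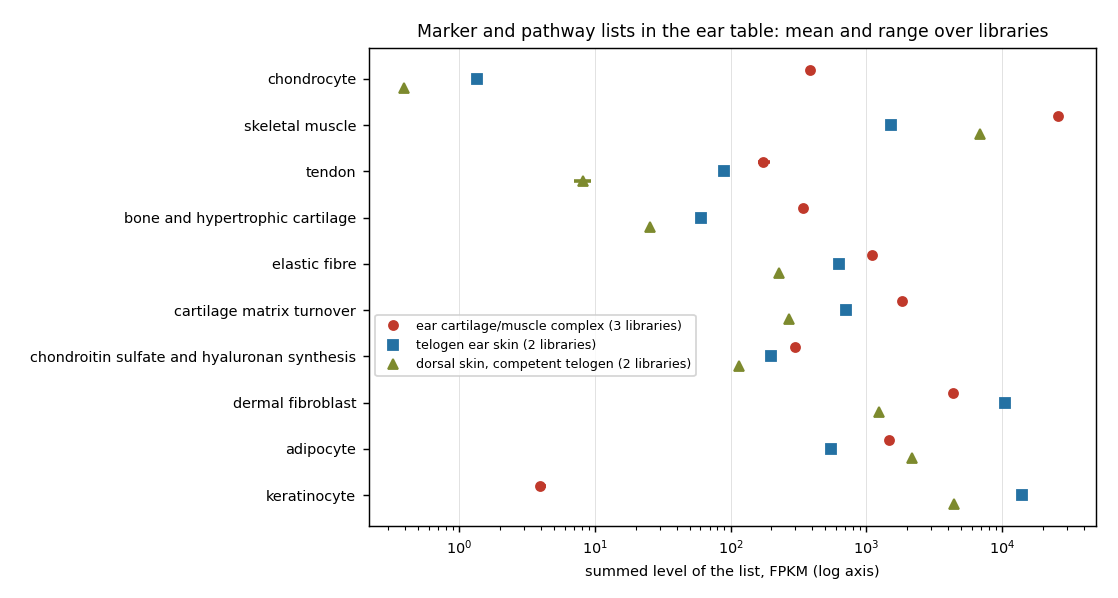
Summed FPKM (log axis) of 10 gene lists in the complex (3 libraries), telogen ear skin (2) and dorsal skin in competent telogen (2); points are means and bars the range over libraries. The chondrocyte list is highest in the complex, between 365.5 and 412.4 FPKM, and the keratinocyte list lowest there, between 3.69 and 4.39 FPKM.

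In whole body skin many members were at or near 0 FPKM, and those at higher levels came from every role but the proteoglycan aggregate. Of the 37 members, 26 were tested over the 43 libraries of the skin table. Those not tested were Col2a1, Col9a1, Col10a1, Hapln1, Chad, Matn1, Matn3, Ucma, Epyc, Nkx3-2 and Ihh, none of which exceeded 0.38 FPKM in any library. The highest group means were 53.8 FPKM for Ctgf, 27.9 FPKM for Fgfr3, 24.2 FPKM for Scrg1, 22.5 FPKM for Ogn and 18.01 FPKM for Prelp. The transcription factor Trps1 reached 16.0 FPKM, the collagen Col11a1 11.9 FPKM and the sulfate transporter Slc26a2 9.06 FPKM, and the highest group mean of Acan was 1.40 FPKM.

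**Figure D4:**
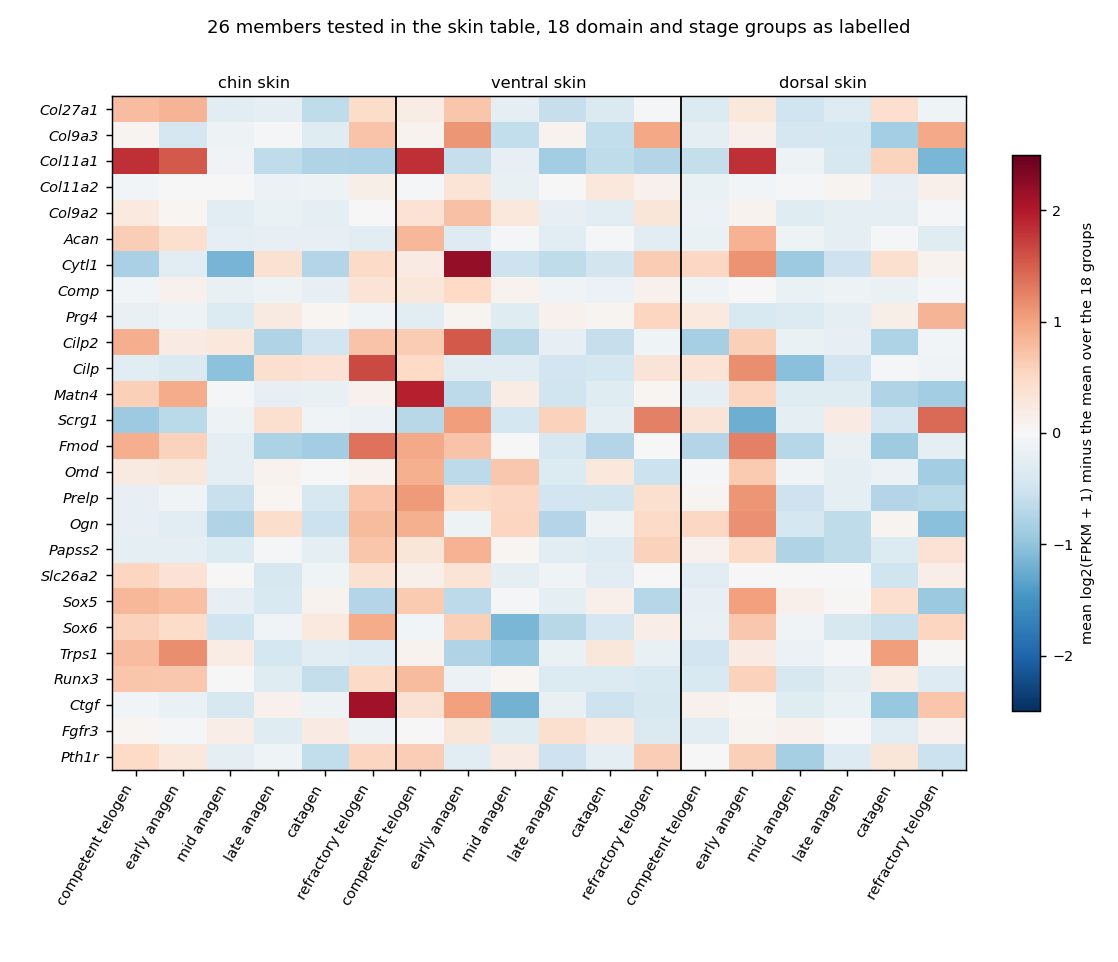
Mean log2(FPKM + 1) of the 26 members tested in the skin table in each of the 18 domain and stage groups, minus the mean over the 18 groups, with stages as labelled. Red is above and blue below the mean of the gene, and the scale runs from -2.5 to 2.5. Col11a1 and Acan are red in chin and ventral competent telogen, chin early anagen and dorsal early anagen, and Cytl1 in ventral early anagen.

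Stage differences were common among the members and among all genes alike. In chin skin 22 of 26 members differed among the 6 stages (66.2% of all 21257 genes tested), in ventral skin 26 (70.2%) and in dorsal skin 22 (68.5%). The stage differences depended on the domain for 24 members (73.3% of all genes), with no call for Comp (adjusted p = 0.0956) and Sox6 (adjusted p = 0.0927). The strongest member interactions were those of Trps1 (F = 46.4, adjusted p = 5.03e-13), Ogn (F = 44.8, adjusted p = 7.30e-13) and Col11a1 (F = 43.3, adjusted p = 1.06e-12).

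Col11a1, a chain of the type XI collagen that sits within type II fibrils, was highest in 4 groups. Dorsal early anagen had 9.65 and 14.2 FPKM, ventral competent telogen 9.22 to 14.2 FPKM, chin competent telogen 11.4 and 11.9 FPKM and chin early anagen 6.80 and 12.8 FPKM. These overlapped each other and lay above dorsal catagen, the next group, at 4.20 and 4.28 FPKM. Acan had the same 4 groups at the top, at 1.2 and 1.6, 1.11 to 1.62, 0.85 and 1.2, and 0.56 and 0.92 FPKM, above dorsal catagen at 0.28 and 0.30 FPKM. Sox5 had them too, from 4.47 FPKM in a ventral competent telogen library to 7.54 FPKM in a chin competent telogen one, but dorsal catagen followed closely at 4.23 and 4.41 FPKM.

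Markers of proliferation, tendon and fibroblasts were also high in several of these groups. Mki67 was at 11.1 to 15.2 FPKM in them, but at 22.8 and 23.0 FPKM in dorsal catagen. Shh, another hedgehog ligand, had its highest group means in the same 4 groups, from 5.09 FPKM in chin early anagen to 10.8 FPKM in dorsal early anagen. Chin mid anagen was next at 3.07 and 5.57 FPKM, overlapping chin early anagen at 3.60 and 6.58 FPKM. The tendon list summed to between 19.3 and 50.95 FPKM in the 4 groups, with 16.4 to 24.1 FPKM in chin refractory telogen. The dermal fibroblast list summed to between 6014 and 6184 FPKM in ventral competent telogen, 5132 and 5150 FPKM in dorsal early anagen, and 1812 to 2468 FPKM in the 2 chin groups. Outside these groups it reached 3865 to 3884 FPKM in ventral mid anagen, 1681 to 3025 FPKM in chin refractory telogen and 2134 to 2711 FPKM in ventral refractory telogen. The part of these cells in Col11a1, Acan and Sox5 was not tested.

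Trps1 had another order: chin early anagen (14.8 and 17.2 FPKM) and dorsal catagen (14.5 and 14.9 FPKM) overlapped at the top, followed without overlap by chin competent telogen (11.4 and 12.4 FPKM). It was lowest in ventral mid anagen, at 2.77 and 2.92 FPKM. Runx3 had its highest mean in ventral competent telogen (3.23 to 4.21 FPKM), which overlapped chin competent telogen (3.22 and 3.35 FPKM), chin early anagen (2.90 and 3.53 FPKM) and chin refractory telogen (2.21 to 3.56 FPKM). Dorsal early anagen (2.75 and 3.14 FPKM) overlapped the last 2 of these.

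Of the leucine-rich proteoglycans, Ogn and Prelp were highest in dorsal early anagen, Omd in ventral competent telogen, Fmod in chin refractory telogen and Epyc in ventral refractory telogen (0.35 and 0.27 FPKM). Ogn stood at 21.5 and 23.6 FPKM in dorsal early anagen, 16.0 to 23.3 FPKM in ventral competent telogen and 16.9 to 18 FPKM in chin refractory telogen, and was at 3.59 and 4.79 FPKM in dorsal refractory telogen. Prelp stood at 17.2 and 18.8 FPKM in dorsal early anagen and 17.2 to 17.5 FPKM in ventral competent telogen, and Omd at 4.57 to 4.99 FPKM in ventral competent telogen, above every other group. Fmod was highest in chin refractory telogen (6.82 to 12.97 FPKM), where it overlapped dorsal early anagen (8.80 and 10.8 FPKM).

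**Figure D5:**
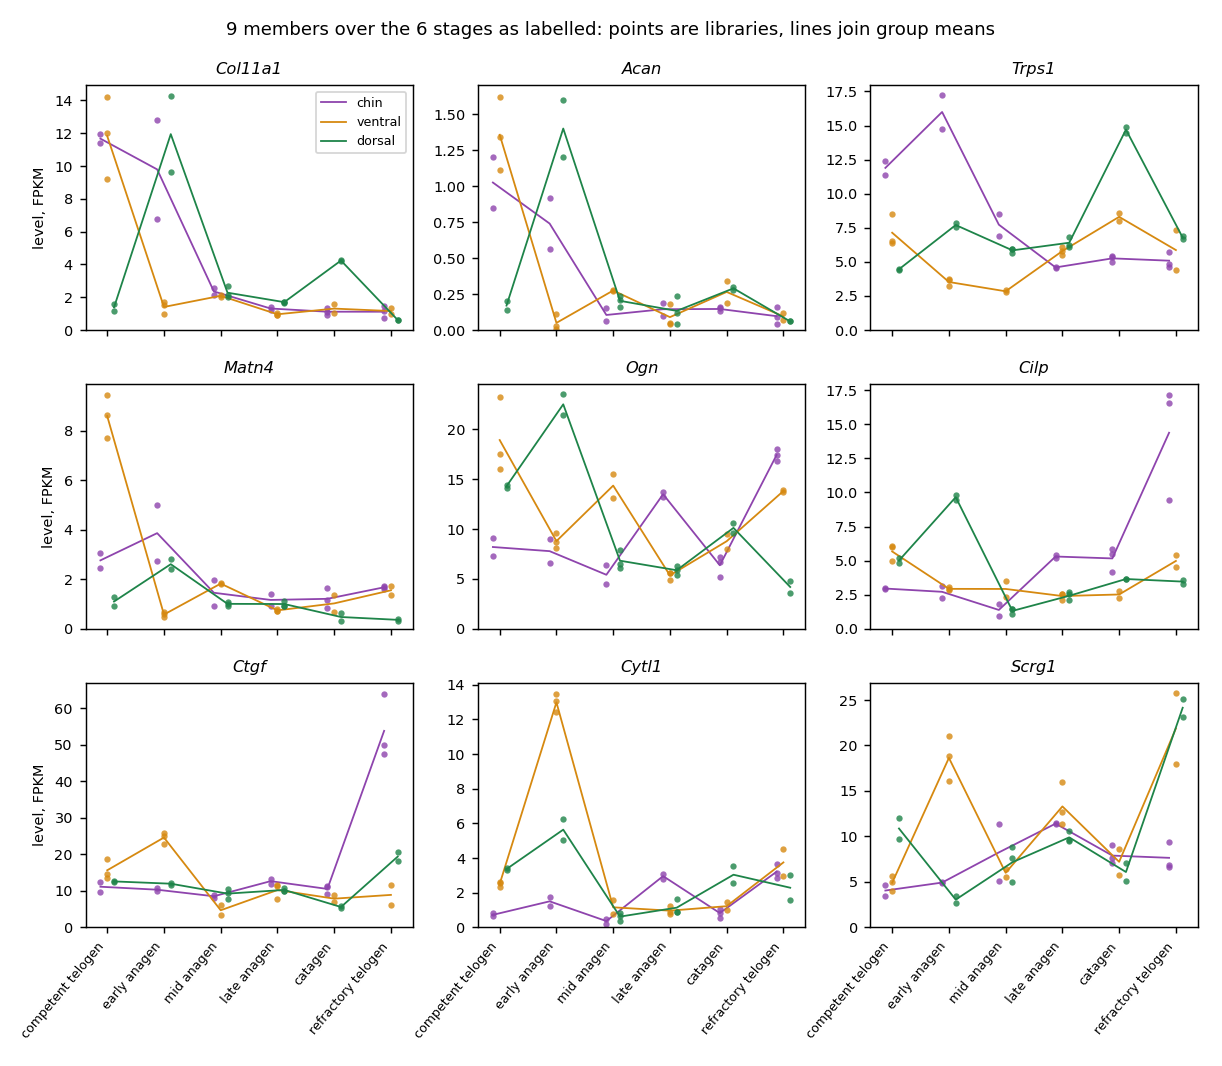
FPKM of 9 members over the 6 stages as labelled in chin, ventral and dorsal skin; points are libraries and lines join group means. Ctgf and Cilp are highest in chin refractory telogen, up to 64.0 and 17.1 FPKM, and Cytl1 in ventral early anagen, at 12.4 to 13.5 FPKM.

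Averaged over the 6 stages, chin skin was higher than dorsal skin for 8 members and lower for 2 (background 17.3% and 9.52%). Ventral skin was higher than dorsal skin for 12 and lower for 3 (background 19.9% and 17.6%). Chin skin was higher than ventral skin for 8 and lower for 6 (background 14.5% and 9.13%). The median differences of the members were 0.11, 0.13 and 0.03, against 0.04, 0.00 and 0.03 over all genes. These 3 comparisons share libraries.

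Few of the domain differences reached 0.5. Matn4 was higher in chin than in dorsal skin by 0.53 (SE 0.076, adjusted p = 6.98e-06) and in ventral than in dorsal skin by 0.44 (SE 0.074, adjusted p = 2.32e-05). Its highest libraries were those of ventral competent telogen, at 9.44, 7.71 and 8.64 FPKM, followed without overlap by chin early anagen at 2.74 and 4.99 FPKM, and its lowest were those of dorsal refractory telogen at 0.31 and 0.41 FPKM and dorsal catagen at 0.65 and 0.30 FPKM. Over refractory telogen, catagen and mid and late anagen alone, Matn4 still exceeded dorsal skin, by 0.48 in chin (SE 0.090, adjusted p = 0.000102) and by 0.41 in ventral skin (SE 0.092, adjusted p = 0.000788).

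Cytl1, the member that dominated the ear complex, was low in body skin and peaked in the libraries labelled ventral early anagen, at 13.04, 13.5 and 12.4 FPKM. Dorsal early anagen followed at 6.24 and 5.04 FPKM, and chin mid anagen was lowest at 0.51 and 0.22 FPKM. The stage average was lower in chin than in ventral skin, at -0.60 (SE 0.079, adjusted p = 1.85e-06), and lower than in dorsal skin, at -0.48 (SE 0.081, adjusted p = 6.12e-05). Without competent telogen and early anagen both differences came to near 0, at -0.02 and -0.03. Snorc had the same domain at its top, at 7.67 and 15.1 FPKM in ventral refractory telogen and 4.66 to 6.35 FPKM in ventral early anagen, while no chin or dorsal library exceeded 2.35 FPKM.

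Scrg1 was lower in chin than in ventral skin by a difference of -0.51 (SE 0.097, adjusted p = 0.00023). It was highest in dorsal refractory telogen (25.1 and 23.2 FPKM), ventral refractory telogen (25.8 and 17.98 FPKM) and ventral early anagen (16.1, 18.8 and 21.0 FPKM), and the chin refractory telogen libraries had 6.89, 9.41 and 6.65 FPKM. Over the 4 stages alone the difference was -0.29 and did not pass (adjusted p = 0.113).

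Sox6 was higher in chin than in ventral skin by 0.53 (SE 0.12, adjusted p = 0.0018), and by 0.67 (SE 0.15, adjusted p = 0.00252) over the 4 stages. Chin refractory telogen had 7.19, 3.18 and 5.63 FPKM, and ventral mid anagen had 0.46 and 0.48 FPKM. Skeletal muscle genes summed to between 14367 and 23066 FPKM in chin refractory telogen, more than in any other group of the skin table, and their part in the level of Sox6 was not tested.

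The other called differences between domains were under 0.5. Prelp (0.41, SE 0.059, adjusted p = 2.33e-06), Cilp2 (0.34, SE 0.070, adjusted p = 0.000318), Fmod (0.34, SE 0.067, adjusted p = 0.000183), Papss2 (0.33, SE 0.055, adjusted p = 2.13e-05) and Ogn (0.22, SE 0.063, adjusted p = 0.00695) were higher in ventral than in dorsal skin. Over the 4 stages the difference of Cilp2 turned to -0.10 and was not called (adjusted p = 0.437). Trps1 was lower in ventral than in dorsal skin by a difference of -0.38 (SE 0.051, adjusted p = 7.07e-07) and higher in chin than in ventral skin by 0.46 (SE 0.051, adjusted p = 8.30e-08), although over the 4 stages the latter came to 0.05 (adjusted p = 0.695). Ctgf was higher in chin than in dorsal skin by 0.34 (SE 0.083, adjusted p = 0.00287) and in chin than in ventral skin by 0.39 (SE 0.082, adjusted p = 0.000703), with chin refractory telogen at 47.5, 64.0 and 49.9 FPKM against at most 25.9 FPKM in any other group. Over the 4 stages those differences of Ctgf came to 0.60 (SE 0.098, adjusted p = 1.90e-05) and 0.99 (SE 0.10, adjusted p = 1.82e-08). Cilp was then higher in chin than in dorsal skin by 0.76 (SE 0.090, adjusted p = 1.33e-07) and than in ventral skin by 0.57 (SE 0.092, adjusted p = 4.39e-05). Ogn exceeded dorsal skin by 0.50 in chin and 0.55 in ventral skin, and Prelp by 0.54 in ventral skin.

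Over the 4 stages alone, chin skin was higher than dorsal skin for 10 members and lower for 3 (background 19.7% and 16.0%), ventral skin was higher for 8 and lower for 4 (background 15.3% and 19.8%), and chin exceeded ventral skin for 4, namely Cilp, Cilp2, Ctgf and Sox6, with 0 lower by limma (background 10.2% and 4.83%). At an unadjusted p under 0.05, 2 members were lower in chin. Of the 14 calls between chin and ventral skin over the 6 stages, 3 were also made over these 4 (Cilp, Ctgf and Sox6). Quantile normalization also moved that comparison, to 4 higher and 9 lower (background 10.6% and 13.6%). Some calls depended on 1 library. The Scrg1 calls against dorsal skin were lost on leaving out any of 22 libraries for chin and 16 for ventral skin, those of Omd with 6 and 7, the ventral minus dorsal calls of Col11a1 and Pth1r with 5 and 11 and the chin minus ventral call of Sox5 with 12. That of Cilp was lost without ventral mid anagen replicate 2 (0.20, adjusted p = 0.0546).

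Between the growth and rest phases, members leaned towards telogen. In anagen minus telogen, averaged over the 3 domains, 1 member was higher (Sox5) and 16 were lower, with a background of 14.3% and 19.8%. The median was -0.20 for the members and -0.01 for all genes. With mid and late anagen against refractory telogen alone, 3 were higher (Col11a1, Omd and Sox5) and 18 lower (background 21.6% and 28.3%), and the median of the members was -0.34.

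Cilp, Ctgf and Col9a3 had the largest of these differences. Cilp was at 17.1, 9.41 and 16.6 FPKM in chin refractory telogen, and at 1.83 and 0.93 FPKM in chin mid anagen, with a difference of -0.67 (SE 0.068, adjusted p = 8.72e-09). Ctgf differed by -0.61 (SE 0.075, adjusted p = 2.42e-07), but the ventral early anagen libraries, at 22.9, 25.9 and 25.01 FPKM, were above both ventral telogen groups. Col9a3 differed by -0.51 (SE 0.076, adjusted p = 4.87e-06). It was highest in ventral early anagen (4.47, 4.83 and 5.41 FPKM), ventral refractory telogen (4.20 and 4.42 FPKM), dorsal refractory telogen (4.35 and 4.21 FPKM) and chin refractory telogen (3.32, 3.90 and 3.27 FPKM), and lowest in dorsal catagen (0.48 and 0.55 FPKM). In all 3 domains the refractory telogen libraries had more Col9a3 than those labelled competent telogen, with no overlap.

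With mid and late anagen against refractory telogen, the differences were -1.15 for Ctgf (SE 0.10, adjusted p = 1.11e-10), -1.14 for Col9a3 (SE 0.10, adjusted p = 1.99e-10), -1.12 for Cilp (SE 0.092, adjusted p = 3.35e-11), -1.03 for Sox6 (SE 0.15, adjusted p = 1.39e-06) and -0.95 for Cytl1 (SE 0.098, adjusted p = 2.68e-09). Papss2 followed at -0.87 (SE 0.068, adjusted p = 1.07e-11). Sox5 went the other way, at 0.67 (SE 0.086, adjusted p = 1.48e-07), unlike its partner Sox6. In the wider contrast Sox5 was 0.23 (SE 0.064, adjusted p = 0.00562) and Cytl1 -0.22 (SE 0.073, adjusted p = 0.0207), and Cytl1 lost its call without dorsal refractory telogen replicate 1 (-0.17, adjusted p = 0.0838) and without ventral refractory telogen replicate 2 (-0.18, adjusted p = 0.0637). All 14 skeletal muscle genes, 6 of 7 dermal fibroblast genes and 5 of 6 adipocyte genes were also lower in anagen, and their part in the member differences was not tested.

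The other lists were counted the same way over the stage averages. In anagen minus telogen, where 14.3% of all genes were higher and 19.8% lower with a median of -0.01, matrix turnover genes were lower in 11 of 12 cases (median -0.32), elastic fibre genes in 9 of 11 (median -0.31), tendon genes in 4 of 5 (median -0.19) and keratinocyte genes in 6 of 8 with 1 higher (median -0.36). Bone and hypertrophic cartilage genes were lower in 3 of 8 cases with 1 higher (median -0.09), and chondroitin sulfate and hyaluronan genes in 6 of 18 with 4 higher (median -0.07), which is nearer to the shares over all genes. Elastic fibre genes were higher in ventral than in dorsal skin in 9 of 11 cases (median 0.60, background 19.9%) and lower in chin than in ventral skin in 9 of 11 (median -0.58, background 9.13%). Of the 6 chondrocyte markers, only Acan and Col11a2 were tested in the skin table, and neither passed in a domain contrast or in anagen minus telogen. With mid and late anagen against refractory telogen, Col11a2 was called lower (-0.18, SE 0.066, adjusted p = 0.0263).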

How the data were processed

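Whole skin and ear cartilage/muscle complex of C57BL/6 mice were profiled by SMART-seq2 and paired-end sequencing on a NextSeq500. The authors aligned reads to mm10 with GENCODE vM8 and quantified them with RSEM 1.2.25 (version per the submitters' processing notes), and the deposited values are FPKM per gene, given with 2 decimals. The study states that batch effects were corrected but names no batches, and whether the FPKM carry that correction was not given in the sources used here. Groups follow the GEO labels; for 1 ventral catagen library the location field names the ear while its title and source name ventral skin, which was followed.

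The values are not counts, so no count test was run. FPKM were analysed as log2(FPKM + 1) with limma 3.58.1 (R 4.3.3; moderated tests with a variance trend, 3 groups in the ear table and 18 in the skin table, Benjamini-Hochberg adjustment over all genes tested). Alternatives were a pseudocount of 0.1, no filter and a minimum of 5 FPKM, TPM rescaling, median of ratios and quantile scaling, a replicate block, dorsal refractory telogen as the dorsal skin, and leaving out each library. Contrasts without competent telogen and early anagen were added after seeing the data. The fits were tested on simulated data. Depth was estimated from the steps that whole fragments leave in FPKM of genes with 1 transcript length. All 36 replicate pairs differed by more than counting noise. The ventral refractory telogen pair differed most, with a median ratio to counting noise of 28.4, against 1.28 to 12.2 in the other pairs.

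Replicate numbers gave no sign of pairing between libraries. Deviations of same-numbered libraries of different groups correlated at -0.0010 and 0.059 in the 2 pairs of the ear table. In the skin table the median was 0.003 over 327 such pairs of libraries. With 2 or 3 libraries a group, these values cannot exclude a pairing. The members, lists and tests were chosen with earlier results of these data known. By rule, all members were named, with library values in the ear table for the 3 most abundant of each role and for those lower in the complex or higher in ear skin than in dorsal skin, and in the skin table for called differences of at least 0.5; of each other list, the 2 genes with the highest complex mean were named. Mki67 and the remaining values were chosen after they were seen. Gene positions come from GENCODE vM21 (GRCm38) and promoters from RefSeq (GRCm38.p6). Python 3.11.15, pandas 2.3.3, numpy 2.4.6 and matplotlib 3.10.9 were used.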

Additional observations from a re-analysis of the deposited data

Results flagged for a closer look

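In 24 of the 26 members tested in the skin table, the differences among stages were not the same in chin, ventral and dorsal skin (limma interaction, adjusted p under 0.05), where 73.3% of all genes tested gave the same call. The largest interaction statistics were F = 46.426 for Trps1, F = 44.829 for Ogn and F = 43.33 for Col11a1. Trps1 was highest in the libraries labelled chin early anagen and dorsal catagen, Ogn in dorsal early anagen and ventral competent telogen, and Col11a1 in chin and ventral competent telogen and in chin and dorsal early anagen. The markers of some of these libraries go against their stage labels, and the part of this in the interactions was not tested.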

How the results depend on the processing

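Members that reached the filter only with the complex libraries are among the calls between the complex and either skin. The 33 calls between the complex and ear skin and the 34 between the complex and dorsal skin kept their direction and passed under every alternative run that tested the gene. Of the 23 calls between the skins 16 did, as did 4 of 10 between chin and dorsal, 7 of 15 between ventral and dorsal, 2 of 14 between chin and ventral skin, 11 of 17 in anagen minus telogen, 20 of 22, 26 of 26 and 21 of 22 among stages in chin, ventral and dorsal skin and 22 of 24 interactions. Counts moved as follows. A minimum of 5 FPKM left 32 members tested in the ear table, with 1 lower in the complex than in dorsal skin, and 17 of 17 tested that differed among ventral stages. In ear skin minus dorsal skin, 4 members were lower with dorsal refractory telogen, 4 with the median of ratios and 5 with quantile normalization. In chin minus dorsal skin, 1 was lower without a filter, with a pseudocount of 0.1 and with the replicate block. In chin minus ventral skin, 4 were higher with quantile normalization and, without competent telogen and early anagen, 4 were higher and 0 lower. In anagen minus telogen, 2 were higher with TPM rescaling, the median of ratios, quantile normalization and a minimum of 5 FPKM, and 3 without competent telogen and early anagen. Leaving out 1 library gave 1 to 2 members lower in chin than in dorsal skin, 2 to 4 lower in ventral than in dorsal skin, 7 to 12 higher in chin than in dorsal skin, 10 to 13 higher in ventral than in dorsal skin, 7 to 9 higher and 6 to 8 lower in chin than in ventral skin, 20 to 23 higher in ear skin than in dorsal skin, and 1 to 2 higher and 15 to 18 lower in anagen. Signs reversed, each without a call, for Ctgf in ear skin minus dorsal skin with dorsal refractory telogen (-0.0038, adjusted p = 0.99) and, without competent telogen and early anagen, for Col27a1 in chin minus dorsal skin (-0.0540, adjusted p = 0.622), Cilp2 in ventral minus dorsal skin (-0.0951, adjusted p = 0.437), Papss2 (0.0079, adjusted p = 0.966) and Sox5 (-0.0921, adjusted p = 0.539) in chin minus ventral skin and Matn4 in anagen minus telogen (0.0409, adjusted p = 0.754). The causes were not tested. Leaving out 1 library also ended the anagen minus telogen calls of Scrg1 and Slc26a2 (3 libraries each), that of Fgfr3 among chin stages (7), that of Slc26a2 among dorsal stages (dorsal catagen replicate 2, F = 2.83, adjusted p = 0.0534) and the interactions of Col9a2 (17) and Col11a2 (24). In all, another scaling moved the split of all genes from 8619 higher and 2824 lower in ear skin minus dorsal skin to 5099 and 5340 (median of ratios) and 10516 and 2066 (TPM), from 5404 and 7433 in complex minus ear skin to 7027 and 5923 (quantile) and 4094 and 8881 (TPM), from 8255 and 5462 in complex minus dorsal skin to 6336 and 7251 (median of ratios), from 3673 and 2024 in chin minus dorsal skin to 2596 and 3262, from 3088 and 1941 in chin minus ventral skin to 2250 and 2891 (both quantile), and from 3035 and 4201 in anagen minus telogen to 3764 and 3361 (TPM) and 3985 and 3556 (quantile).

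With the replicate block, 32 members were higher and 2 lower in complex minus dorsal skin, 8 and 1 in chin minus dorsal, 11 and 3 in ventral minus dorsal, 8 and 6 in chin minus ventral skin and 1 and 16 in anagen minus telogen, and 23, 26 and 22 differed among chin, ventral and dorsal stages and 23 in the interaction. No paired analysis was possible for the 2 comparisons with ear skin because its columns carry no replicate number that the labels share.

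Members under about 1 FPKM rest on few fragments at these depths, and a value listed at 0 does not show that a gene is silent. With 2 or 3 libraries a group, the tests lean on a spread shared between groups. The complex was sequenced without separating cartilage from muscle.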
